A study of Drosophila melanogaster with 18 samples.

Results

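Excision repair and photoreactivation genes were followed in the nuclei of Drosophila R1–R6 photoreceptors during aging and blue light exposure. The set held 10 genes, chosen by name and matched by FlyBase identifier, of 17811 features in the count table. All 10 had counts, and 9 passed the filter of more than 10 counts in every one of 18 samples; Ercc1 did not, and was described without a place in the main tests.

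Nucleotide excision repair removes bulky damage such as ultraviolet photoproducts: the lesion is recognized, the DNA is opened by the helicases of TFIIH, and the strand is cut on both sides of the lesion by a pair of structure-specific nucleases. Base excision repair removes small damaged bases, including oxidized ones, and passes through an abasic site that an AP endonuclease cuts. Photolyases reverse ultraviolet photoproducts directly, and blue or near-ultraviolet light is their energy source.

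RNA was sequenced from immunoenriched nuclei of white-eyed male flies in 6 conditions with 3 samples each. Flies aged to day 5 (D5), D15 or D30 on a light:dark cycle formed the age series, and D5 flies kept under blue light for 3, 5 or 8 h formed the exposure series. All flies carried w1118, cn and bw, which deplete eye pigment, and the Rh1-GFP-Msp300KASH insertion 3-1, so the D5 controls carried these alleles too. The tag is driven by ninaE (Rh1) regulatory elements, and each sample pooled many flies. The insertion lies at the Catalase gene and raises its expression, so all 6 conditions describe a single insertion line with raised Catalase. Because the material was nuclear RNA, levels here stand nearer to transcription than those of total RNA.

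The samples held 11435368 to 20471486 counts in features, 24.5 to 44.9% of the records in each. All D30 samples, at 24.5 to 26.3%, lay below every other sample, of which the lowest was at 32.8%. The part of this in the D30 results was not tested. All 12 R1–R6 markers listed were detected, with a summed level of 46500 to 87300 cpm (the normalized counts-per-million scale used throughout) across the 18 samples. Summed glial markers (6 of 6 detected) were at 1390 to 2080 cpm after 3 h, 441 to 543 cpm at D5 and 289 to 338 cpm after 8 h, so the 3 h samples stood above the others in glial RNA, and no marker of any list was at 0 in all samples. Summed markers of other neurons (8 of 8 detected) were at 822 to 1030 cpm at D5 and 486 to 736 cpm in all other conditions. With age, R1–R6 markers were at 82900 to 85500 cpm at D15, wholly above the 58700 to 71300 cpm of D5, and at 46500 to 87300 cpm at D30. Summed hemocyte markers (3 of 3 detected) went from 71.6 to 96.7 cpm at D5 to 32.1 to 58.7 cpm in the other conditions, and fat body markers (4 of 4) from 50.6 to 243 cpm at D5 to 22.4 to 29.2 cpm after 8 h, 35.4 to 44.7 cpm at D15 and 49.3 to 70.4 cpm at D30. R7 and R8 markers (4 of 4 detected) summed to 262 to 296 cpm at D5 and 320 to 650 cpm at D30. After 3 h and 8 h they were at 144 to 239 and 209 to 244 cpm. Muscle markers (4 of 4) were at 744 to 1370 cpm at D5 and 704 to 1880 cpm at D30. After 8 h and at D15 they were at 471 to 615 and 451 to 550 cpm. The part of these marker shifts in the results was not tested. The 5 h group was uneven: on the first of the 2 RUVs factors, estimates of unwanted variation fitted as covariates, its samples ranged from -0.52 to 0.84, with replicate 1 at the top, while the 3 h samples lay at 0.41 to 0.57 and the D5 samples at -0.27 to -0.07. On the second factor the 8 h samples lay at -0.62 to -0.26 and the D5 samples at 0.08 to 0.31. The D30 and 3 h groups were uneven on it, from -0.09 to 0.92 and from -0.10 to 0.54, each with replicate 1 at the top. Condition and factor therefore moved together in part, and each call below is given with and without them. The labels place the D5 and D15 samples in 1 sequencing lane, all 9 blue light samples in another and the D30 samples on another flow cell, so lane and condition cannot be told apart except between D5 and D15 and among the 3 exposures, of which 8 h against 3 h was tested here. In bulk RNA of this kind, fewer nuclei of a type and less RNA per nucleus cannot be told apart.

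All 10 are protein-coding genes, on chromosomes 2L, 2R, 3L and X; positions are those of BDGP6.54, while the reads were aligned to BDGP6.28. At D5, mus210, the fly XPC gene for damage recognition (FBgn0004698, 2R 15311510 to 15318239), stood highest per kilobase of exon, at 15.9 ± 1.31 RPKM (SD, n = 3). The helicase gene hay followed at 4.40 ± 0.28 RPKM and mus201 at 3.78 ± 0.17 RPKM, and neither the ranges of mus210 and hay nor those of hay and mus201 overlapped. Lower down, mei-9 was at 3.29, Xpac at 2.44, Xpd at 1.88 and Rrp1 at 1.41 RPKM; mei-9 overlapped with mus201, its range lay above that of Xpac, and each later neighbour overlapped the next. The lowest 3 were Ercc1 at 0.93, phr at 0.61 and phr6-4 at 0.52 RPKM. Among the 16714 features with a length and a count, phr and phr6-4 stood low, at percentiles 28.4 and 25.4, against 83.5 for mus210. Cryptochrome (cry), the light-sensing relative of the photolyases, was at percentile 90.2.

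**Figure D1:**
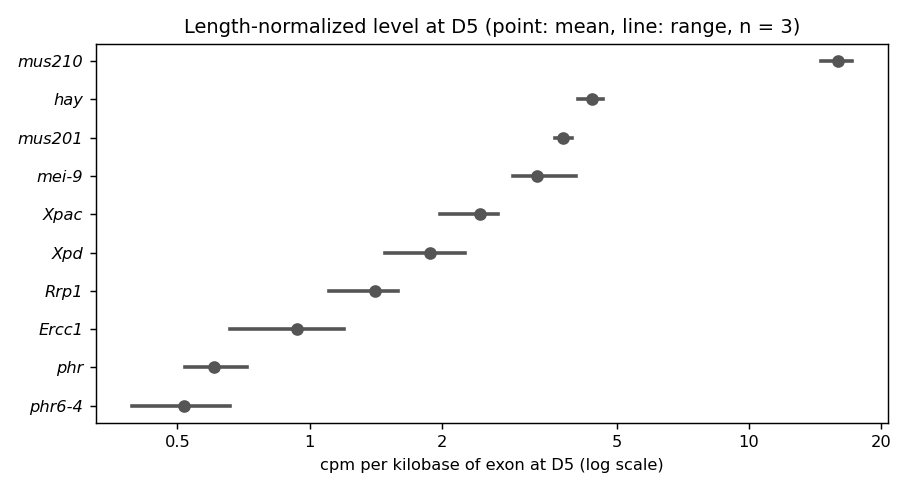
Level of each gene at D5 in cpm per kilobase of exon (RPKM, log axis), as the mean (point) and the range (line) of 3 samples. The highest gene, mus210, is at 15.9 RPKM and the lowest, phr6-4, at 0.52 RPKM.

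Of the 9 tested genes, none was called after 3 h of blue light, 1 after 5 h, 2 after 8 h, none at D15 and 2 at D30, each against D5 and each call a rise. The tests were edgeR quasi-likelihood tests over 9427 features, with 2 RUVs factors in the model and an adjusted p under 0.05 as the threshold. Among all features tested, 7.86% were called after 3 h, 9.52% after 5 h, 9.08% after 8 h, 3.81% at D15 and 17.5% at D30, and 4.61, 5.04, 4.60, 1.52 and 8.75% were called as a rise. At an unadjusted p under 0.05 in edgeR the count was 2 after 3 h and 3 at D15, where 23.8 and 21.1% of all features passed. The DESeq2 Wald test called 1 after 3 h and 0 at D15. The 3 h call was mus201 as a fall (log2 fold change -0.58, adjusted p = 0.0494 in DESeq2). All 9 log2 fold changes were above 0 after 8 h and at D30, with medians of 0.74 and 0.50, against -0.03 and 0.05 over all features, of which 47.2% and 55.2% were above 0. After 3 h, after 5 h and at D15, 5, 8 and 7 of the 9 were above 0 (51.1, 51.0 and 49.4% of all features), with medians of 0.18, 0.45 and 0.38. With no factors the medians were 0.42 after 3 h, 0.71 after 5 h, 0.62 after 8 h, 0.35 at D15 and 0.59 at D30. These 5 comparisons share the D5 samples, and the genes were chosen with earlier results of these data known.

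**Figure D2:**
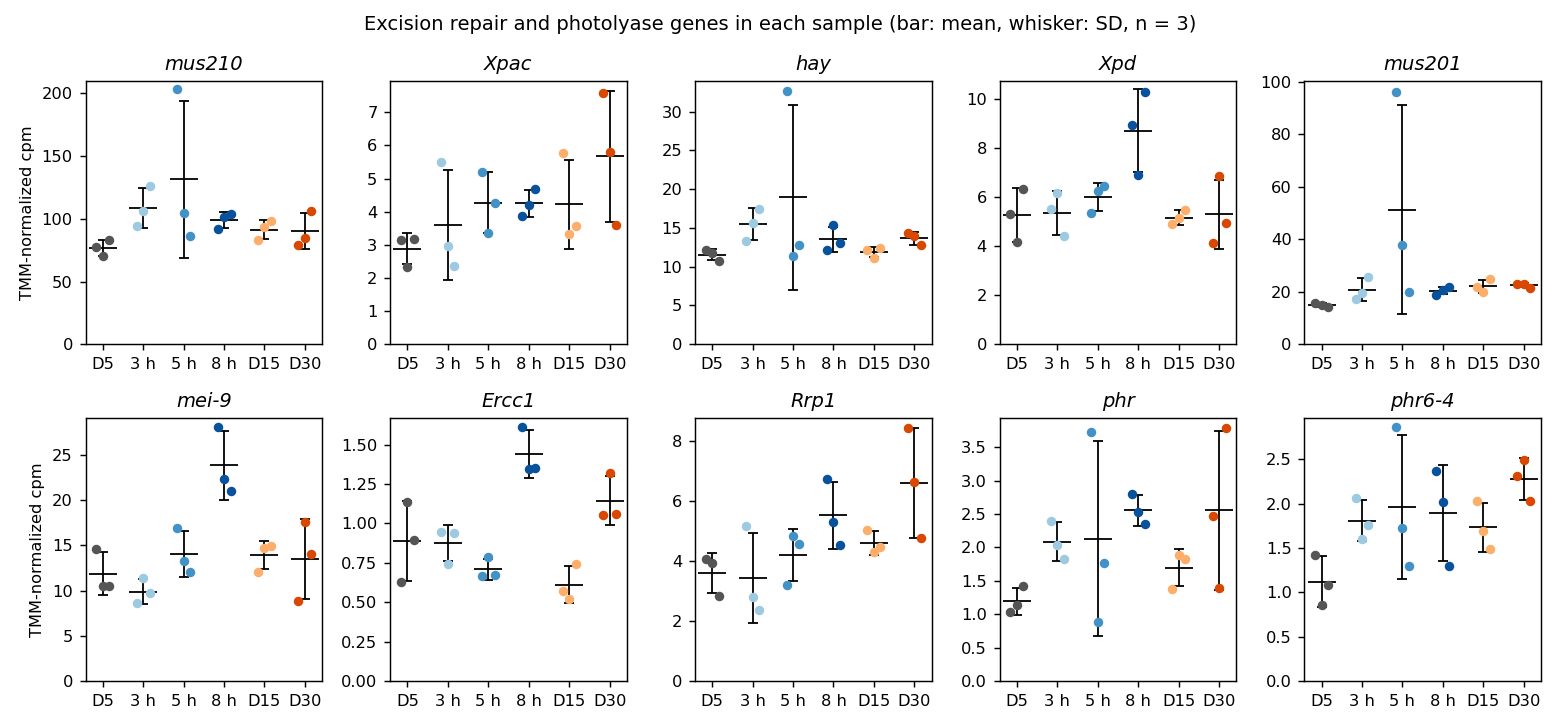
TMM-normalized cpm of the 10 genes in every sample, with 1 point per sample, the mean as a bar and the SD as a whisker (n = 3), in the order D5, 3 h, 5 h and 8 h of blue light, D15 and D30. In mei-9 all 8 h samples lie at 21.0 to 28.2 cpm, above every other sample, and in mus201 a single 5 h sample reaches 96.1 cpm.

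Damage recognition rests on mus210 and Xpac. The XPC gene mus210 was at 77.6, 70.4 and 83.0 cpm at D5, and at 94.5, 106 and 126 cpm after 3 h. After 5 h it was at 203, 104 and 86.7 cpm, and after 8 h at 92.1, 101 and 104 cpm. In each exposure group every sample lay above every D5 sample, and 1 sample of the 5 h group stood far above the rest. With age, mus210 was at 83.0, 93.4 and 98.1 cpm at D15 and at 79.4, 84.5 and 106 cpm at D30, overlapping with D5. None of the changes passed the test with 2 factors: the fitted log2 fold change was -0.13 (SE 0.15) after 3 h, 0.30 (SE 0.13) after 5 h and 0.17 (SE 0.15) after 8 h, and with no factors they were 0.50, 0.77 and 0.36, of which the 5 h value passed the threshold (adjusted p = 0.0465). Exons of mus210 share 423 bases with the antisense gene CG8155, and the strand setting of the counting is not given in the sources used here, so reads of these genes cannot be told apart there.

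Xpac, the XPA gene, whose protein verifies damage and binds the opened DNA (FBgn0004832, X 4102955 to 4104197), rose after 8 h. It was at 3.13, 2.33 and 3.16 cpm at D5 and at 3.88, 4.21 and 4.69 cpm after 8 h. Every 8 h sample was above every D5 sample, though the lowest 8 h and the highest D5 sample were close. The log2 fold change was 1.29 (SE 0.30, adjusted p = 0.0184 in edgeR), a 2.45-fold fitted rise, while the ratio of mean cpm was 1.48. Without factors the log2 fold change was 0.56 (adjusted p = 0.229), and with 1 factor 0.56 (adjusted p = 0.196), so the call was made once the second factor, on which the 8 h samples differ from D5, was in the model. With no filter it was 0.83 (adjusted p = 0.0957). Leaving out 3 h replicate 1 gave 0.55 (adjusted p = 0.16) and leaving out D30 replicate 1 gave 0.67 (adjusted p = 0.147). After 5 h Xpac was at 5.20, 3.35 and 4.26 cpm, also above every D5 sample, and its log2 fold change of 0.90 (SE 0.27) had an adjusted p of 0.05001, just short of the threshold. After 3 h it was at 5.49, 2.96 and 2.35 cpm, overlapping D5. At D15 it was at 5.77, 3.32 and 3.57 cpm and at D30 at 7.58, 5.80 and 3.61 cpm, in both ages above every D5 sample, with log2 fold changes of 0.78 (SE 0.25, adjusted p = 0.102) and 0.63 (SE 0.26, adjusted p = 0.103) that did not pass the edgeR test. In edgeR the D30 value was 0.99 without factors (adjusted p = 0.0981) and 0.99 with 1 factor (adjusted p = 0.0619). Both were above the 8 h values of the same models. With 40 to 144 counts per sample, counting alone gives an SD of up to 15.8% in Xpac.

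The XPB and XPD helicases of TFIIH, which open the DNA around a lesion and also serve in transcription initiation, are encoded by hay and Xpd. The XPB gene hay (FBgn0001179, 3L 10631079 to 10633969) was at 12.2, 11.7 and 10.8 cpm at D5, 13.3, 15.7 and 17.4 cpm after 3 h, and 12.2, 15.4 and 13.0 cpm after 8 h. In the 5 h group it was at 32.7, 11.4 and 12.8 cpm, so that replicate 1 again stood alone while the others overlapped D5. At D15 it ranged from 11.1 to 12.5 cpm, overlapping D5, and at D30 from 12.8 to 14.4 cpm, above them. Its log2 fold changes against D5 ran from -0.25 after 3 h to 0.30 after 5 h and 8 h, and none passed the test. Exons of hay share 117 bases with CG34001 on the same strand, whose reads cannot be separated there.

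Xpd (FBgn0261850, 2R 21171001 to 21174504) was at 5.30, 4.16 and 6.32 cpm at D5, 5.49, 6.17 and 4.40 cpm after 3 h, and 5.34, 6.23 and 6.44 cpm after 5 h. After 8 h it was at 8.94, 6.90 and 10.3 cpm, above every D5 and every 3 h sample. At D15 and D30 it ranged from 4.88 to 5.46 and from 4.11 to 6.83 cpm, overlapping D5. The log2 fold change after 8 h was 0.61 (SE 0.28, adjusted p = 0.177 in edgeR). With no factors it was 0.72 (adjusted p = 0.0363), a similar size that passed the threshold.

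Among the incision nucleases, mus201, the XPG gene for the nuclease that cuts on the 3′ side of the lesion (FBgn0002887, 2L 8438169 to 8442342), rose after 5 h in every model tried. It was at 15.6, 14.9 and 14.3 cpm at D5. After 5 h it was at 96.1, 37.8 and 19.98 cpm. All 3 samples of the 5 h group lay above D5, by amounts that differed widely from sample to sample. The log2 fold change was 1.01 (SE 0.17, adjusted p = 0.0039 in edgeR), and this call held in all 27 alternatives tried, with adjusted p from 9.75e-06 to 0.0318. Without 5 h replicate 1 it was 0.78 (adjusted p = 0.0318), and without factors 1.78 (adjusted p = 0.0118).

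After 3 h, mus201 was at 17.4, 19.4 and 25.6 cpm and after 8 h at 18.9, 20.7 and 21.8 cpm. Every sample of both groups was above every D5 sample, and the 2 groups overlapped each other. With 2 factors the 3 h log2 fold change was -0.59 (SE 0.19, adjusted p = 0.0759), opposite in sign to the cpm; with none it was 0.48 (adjusted p = 0.367), and without 5 h replicate 1 it was 0.01 (adjusted p = 0.985). The 8 h log2 fold change was 0.51 (SE 0.19, adjusted p = 0.105) and did not pass the test. At D15 mus201 was at 21.8, 19.9 and 24.8 cpm and at D30 at 23.0, 22.9 and 21.5 cpm, above every D5 sample at both ages. The D30 rise of 0.50 on the log2 scale (SE 0.16, adjusted p = 0.0402) passed the edgeR test, and the D15 value of 0.38 (SE 0.16, adjusted p = 0.175) did not; in the D5 and D15 samples alone, with no factors, it was 0.54 (adjusted p = 0.0481), with 2 factors 0.52 (adjusted p = 0.0543), and in all samples with no factors 0.57 (adjusted p = 0.428). The D30 call held in 16 of 27 alternatives. With no factors it was 0.59 (adjusted p = 0.372), with no filter 0.30 (adjusted p = 0.484) and with a filter of cpm over 1 in at least 3 samples 0.33 (adjusted p = 0.413). It also ended, at log2 fold changes of 0.43 to 0.56 and adjusted p of 0.0516 to 0.106, when any of D5 replicates 2 and 3, 5 h replicates 1 and 2, 8 h replicates 2 and 3 or D30 replicates 1 and 2 was left out.

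The XPF gene mei-9, for the catalytic subunit of the nuclease that cuts on the 5′ side (FBgn0002707, X 4314230 to 4318801), was highest after 8 h. It was at 14.6, 10.5 and 10.5 cpm at D5, 8.58, 11.4 and 9.68 cpm after 3 h, and 16.9, 13.2 and 12.04 cpm after 5 h. After 8 h it was at 28.2, 22.4 and 21.0 cpm, above every sample of every other condition. Against D5 the log2 fold change after 8 h was 0.74 (SE 0.25, adjusted p = 0.0797) with 2 factors, and 1.01 (adjusted p = 0.0116) with none. At D15 it was at 12.1, 14.8 and 14.9 cpm and at D30 at 8.85, 17.6 and 14.0 cpm, overlapping D5, with log2 fold changes of 0.07 (SE 0.21) and 0.25 (SE 0.21). Exons of mei-9 share 382 bases with the noncoding gene lncRNA:CR44957 on the same strand, whose reads cannot be separated there.

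Ercc1, the partner subunit of the mei-9 nuclease (FBgn0028434, 2R 14852941 to 14853948), had 7 to 30 counts per sample and more than 10 in 15 of 18. It was at 0.63, 1.14 and 0.90 cpm at D5 and at 1.61, 1.35 and 1.35 cpm after 8 h. As with mei-9, every 8 h sample of Ercc1 lay above every D5 and every 3 h sample; the 3 h group was at 0.94, 0.74 and 0.94 cpm and the 5 h group at 0.67, 0.78 and 0.67 cpm. At D15 it was at 0.57, 0.52 and 0.74 cpm and at D30 at 1.05, 1.32 and 1.06 cpm, so the D30 samples were above all D15 samples and overlapped D5. In a fit with no filter the 8 h log2 fold change was 0.84 (SE 0.39, adjusted p = 0.179 in edgeR). At its lowest count the counting error alone is 37.8%. Exons of Ercc1 share 86 of 950 bases with the antisense gene Ciao1, and without the strand setting reads of these genes cannot be told apart there. Antisense overlap was 41 bases in Xpac, with CG15375, and 17 bases in phr, with Prosalpha1.

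Rrp1, the major fly AP endonuclease of base excision repair (FBgn0004584, 2L 2969773 to 2972508), rose after 8 h. It was at 4.05, 3.93 and 2.83 cpm at D5 and at 6.73, 5.28 and 4.53 cpm after 8 h, with no overlap. Its log2 fold change was 1.19 (SE 0.26, adjusted p = 0.0141 in edgeR). As for Xpac, the size was smaller in simpler models: 0.62 without factors (adjusted p = 0.140) and 0.61 with 1 factor (adjusted p = 0.100), against a ratio of mean cpm of 1.53. With no filter it was 0.81 (adjusted p = 0.0668). Leaving out 3 h replicate 1 gave 0.63 (adjusted p = 0.0567) and leaving out D30 replicate 3 gave 0.75 (adjusted p = 0.0547). After 3 h Rrp1 was at 5.15, 2.78 and 2.35 cpm and after 5 h at 3.20, 4.81 and 4.57 cpm, both overlapping D5. At D15 it was at 5.04, 4.29 and 4.45 cpm and at D30 at 8.43, 6.61 and 4.76 cpm, above every D5 sample at both ages. The log2 fold changes were 0.63 (SE 0.22, adjusted p = 0.121) and 0.65 (SE 0.22, adjusted p = 0.0546), neither past the edgeR threshold. In simpler edgeR models the D30 change was larger, at 0.88 without factors (adjusted p = 0.0953) and 0.90 with 1 factor (adjusted p = 0.0454). The 1-factor value passed the threshold, and both were above the 8 h values of the same models.

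**Figure D3:**
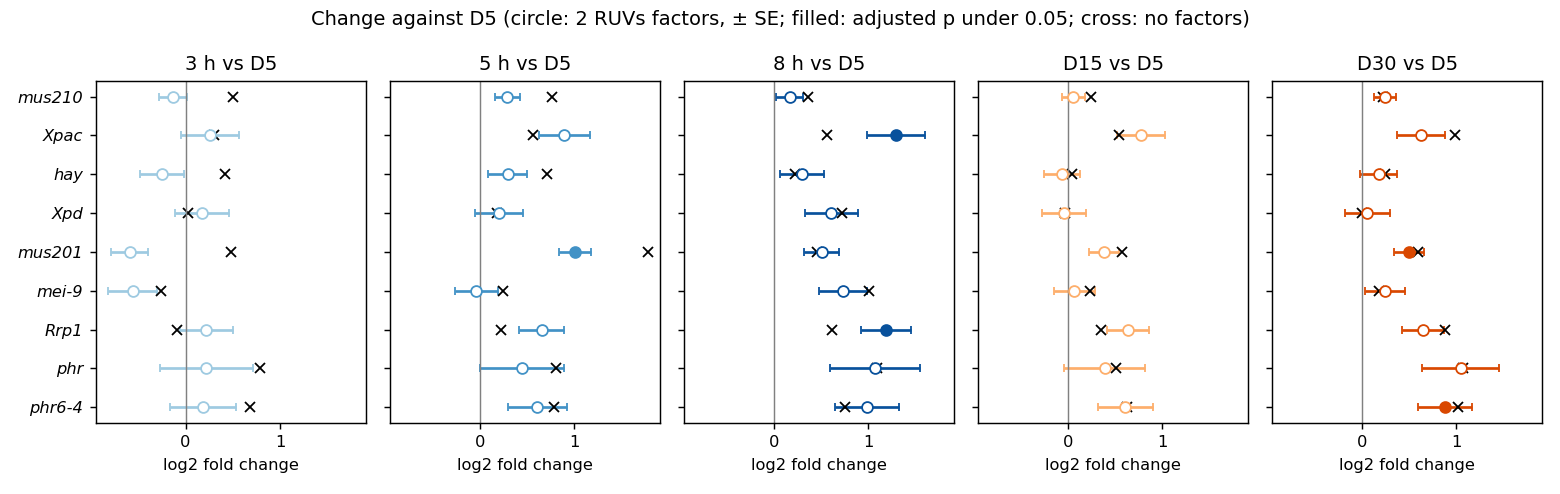
Log2 fold change of the 9 tested genes against D5 in each of 5 conditions, with 2 RUVs factors (circle, ± SE, filled where the adjusted p was under 0.05) and with none (cross). After 8 h the filled circles are Xpac at 1.29 and Rrp1 at 1.19, and after 3 h circle and cross lie on opposite sides of 0 for mus210, hay, mus201 and Rrp1.

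The photolyases were the least abundant tested genes, with 17 to 56 counts per sample for phr and 15 to 44 for phr6-4. The first, phr (FBgn0003082, 2R 7825289 to 7827319), repairs cyclobutane pyrimidine dimers. It was at 1.03, 1.14 and 1.41 cpm at D5, 2.40, 2.04 and 1.82 cpm after 3 h, 3.74, 0.89 and 1.76 cpm after 5 h, and 2.80, 2.53 and 2.34 cpm after 8 h. All samples of the 3 h and 8 h groups were above all D5 samples, and the 5 h group ran from below D5 to above it. The log2 fold change after 8 h was 1.07 (SE 0.48, adjusted p = 0.165) and that after 3 h 0.22 (SE 0.49, adjusted p = 0.838), so neither passed the edgeR test. At D15 phr was at 1.38, 1.89 and 1.82 cpm and at D30 at 2.48, 1.40 and 3.79 cpm, in each age with 1 sample inside the D5 range; the D30 log2 fold change was 1.04 (SE 0.41, adjusted p = 0.0892), which does not pass either.

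The other photolyase gene, phr6-4 (FBgn0016054, 2L 20643351 to 20645791), repairs (6-4) photoproducts. It was at 1.43, 0.85 and 1.09 cpm at D5 and at 2.32, 2.50 and 2.03 cpm at D30, with no overlap. The log2 fold change at D30 was 0.88 (SE 0.29, adjusted p = 0.0480 in edgeR), close to the threshold, and 1.02 with no factors (adjusted p = 0.0747). The call held in 10 of 27 alternatives, with adjusted p up to 0.376, the log2 fold change staying between 0.67 and 1.14. It ended at adjusted p of 0.05 to 0.13 without any of D5 replicates 2 and 3, 3 h replicates 2 and 3, 5 h replicates 2 and 3, 8 h replicates 1 and 2, D15 replicates 2 and 3 or D30 replicates 1 and 2. At D15 it was at 2.03, 1.69 and 1.48 cpm, also above every D5 sample (log2 fold change 0.61, SE 0.29, adjusted p = 0.250). After 3 h it was at 2.06, 1.60 and 1.76 cpm, after 5 h at 2.87, 1.73 and 1.30 cpm and after 8 h at 2.37, 2.02 and 1.30 cpm. Only the 3 h exposure group lay wholly above D5, and the 8 h log2 fold change of 0.98 (SE 0.34, adjusted p = 0.0797) did not pass the test. The relative cry, a circadian photoreceptor with no photolyase function known in flies, showed its own order of levels: it was at 55.0 ± 3.39 cpm at D5, 33.3 ± 7.57 after 3 h, 52.1 ± 22.5 after 5 h, 45.3 ± 3.76 after 8 h, 36.9 ± 5.08 at D15 and 40.8 ± 4.74 at D30 (SD, n = 3). Every cry sample after 3 h, after 8 h, at D15 and at D30 lay below every D5 sample, as 22.9, 25.2, 17.2 and 11.1% of all features did. No change of cry passed the edgeR test with 2 factors, where the D30 value came closest (log2 fold change -0.44, SE 0.15, adjusted p = 0.0547). Its 3 h log2 fold change was -0.04 with 2 factors (SE 0.19) and -0.73 with none (adjusted p = 0.0619 in edgeR).

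Genes with all values of a condition above all D5 values were common in the set. After 8 h they were 8 of the 9 tested genes, where 25.1% of all features were so separated. Among these 8, hay was separated only narrowly, with its lowest 8 h sample at 12.22 cpm and its highest D5 sample at 12.2 cpm. The corresponding counts were 5 of 9 after 3 h (22.3% of features), 3 of 9 after 5 h (12.6%), 4 of 9 at D15 (16.8%) and 5 of 9 at D30 (15.4%). No tested gene lay wholly below D5 in any of these conditions, where 22.9, 14.2, 25.2, 17.2 and 11.1% of features did. These counts rest on cpm without the factors. The genes were chosen with earlier results of these data known, so the counts are a description.

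The time course of exposure was compared in 8 h against 3 h, where all samples shared a lane. All 9 fitted log2 fold changes were above 0 (49.1% of all features were), with a median of 0.85 against -0.01 over all features. With no factors 6 of 9 were above 0 and the median was 0.26. Of the 9, 2 rose, mus201 and mei-9, where 15.5% of all features were called, 6.41% as a rise. The mei-9 change was 1.29 (SE 0.29, adjusted p = 0.0100 in edgeR), a 2.45-fold rise that cpm showed in the same size, at a ratio of 2.42 with no overlap. It was 1.27 with no factors (adjusted p = 0.00111) and 1.28 in the 9 blue light samples alone with no factors (adjusted p = 0.00524), and held in 28 of 29 alternatives. For mus201 the log2 fold change was 1.10 (SE 0.22, adjusted p = 0.0050), but the cpm of the groups overlapped at a ratio of 0.98. It was -0.03 with no factors (adjusted p = 0.966) and 0.34 without 5 h replicate 1 (adjusted p = 0.461), a sample that belongs to neither group and takes part through the factors. The mus201 difference between 8 h and 3 h therefore rested on the factors, and the mei-9 difference did not. Both groups differ in glial RNA as given above, and the part of this in the results was not tested. Xpd and, outside the test, Ercc1 also lay higher in every 8 h than in every 3 h sample, as 27.2% of all features did, while mus210, Xpac, hay, Rrp1, phr and phr6-4 overlapped like mus201.

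**Figure D4:**
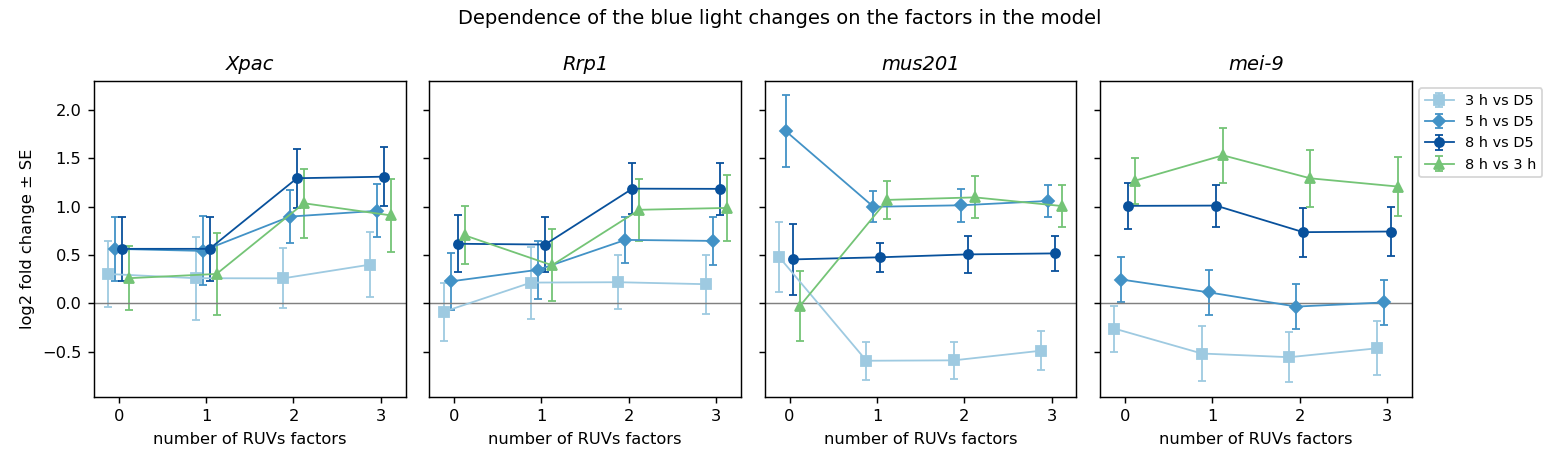
Log2 fold change (± SE) of Xpac, Rrp1, mus201 and mei-9 with 0, 1, 2 or 3 RUVs factors in the edgeR model, for 3 h, 5 h and 8 h against D5 and for 8 h against 3 h. The 8 h against 3 h value of mus201 goes from -0.03 with 0 factors to 1.10 with 2, while that of mei-9 is 1.27 with 0 and 1.29 with 2.

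The late age and the longest exposure were compared directly. Between D30 and 8 h, 0 of 9 tested genes were called in edgeR, where 7.50% of all features were, and 0 in DESeq2. At an unadjusted p under 0.05 in edgeR the count was 0, where 23.6% of all features passed. Of the 9, 1 log2 fold change was above 0 (53.6% of all features were), and the median was -0.12, against 0.04 over all features. With no factors 5 of 9 were above 0 and the median was 0.02. Xpd and mei-9, and Ercc1 outside the test, lay lower in every D30 than in every 8 h sample (21.8% of all features did so). Without factors these were the 2 genes called, Xpd at -0.72 (adjusted p = 0.0293) and mei-9 at -0.83 (adjusted p = 0.0184). Approximate 95% intervals of the log2 difference with 2 factors were wide, from -1.20 to 0.10 for Xpd and from -1.07 to 0.09 for mei-9. They use a normal approximation from the SE and are narrower than the edgeR test implies. The lane of each group also differs. Between D30 and D15, 0 of 9 were called in edgeR, where 0.223% of all features were, and 0 in DESeq2. At an unadjusted p under 0.05 in edgeR the count was again 0, where 10.4% of all features passed. The gene hay, with Ercc1 outside the test, was higher in every D30 than in every D15 sample (13.4% of features were).

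Levels also varied together from sample to sample. Over the 18 samples, Pearson's r of log2 cpm was 0.86 between mus210 and mus201, 0.85 between mus210 and hay, 0.80 between hay and mus201, 0.73 between Xpd and mei-9 and 0.69 between Xpac and Rrp1. Thus mus210, hay and mus201 formed a group that peaked in 5 h replicate 1, and Xpd and mei-9 a pair that peaked after 8 h. With the factors removed, r was 0.84, 0.79, 0.71, 0.52 and 0.78 for the same pairs, and that of Rrp1 and phr6-4 went from 0.42 to 0.81. These points share conditions, lanes and depth, and r is a description of them. Searched over the 9426 other features tested, the patterns most like that of mus201 were those of CG30496 (r = 0.94), CG12877 (0.92) and pic (0.91), which encodes the fly DDB1 and is itself a damage recognition gene. Without 5 h replicate 1 these fell to 0.77, 0.73 and 0.63 over 17 samples. For Xpac they were vito (0.82), Smu1 (0.80) and CG5292 (0.79), and for phr6-4 CG12301 (0.84), CG9706 (0.82) and bnl (0.81).

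Other genes of these pathways were read from a textbook list of 26, of which 24 were in the table and 20 were tested: 13 of nucleotide excision repair, 6 of base excision repair, and cry. Of the 20, 1 was higher after 3 h, 3 after 5 h, 3 higher and 1 lower after 8 h, and 1 was lower at D30. None was called at D15 (2 at an unadjusted p under 0.05 in edgeR, where 21.1% of all features passed). Over all features, 4.61, 5.04 and 4.60% were called as a rise after 3, 5 and 8 h. In either direction 9.08% were called after 8 h, 3.81% at D15 and 17.5% at D30. XRCC1, the scaffold of single-strand break and base excision repair, was called at all 3 exposures: it was at 12.2 to 16.9 cpm at D5, 41.5 to 50.3 cpm after 3 h, 17.3 to 65.1 cpm after 5 h and 26.1 to 28.5 cpm after 8 h, each group wholly above D5. Its log2 fold changes were 0.76 (adjusted p = 0.0418), 0.73 (adjusted p = 0.0259) and 0.98 (SE 0.21, adjusted p = 0.0109 in edgeR), and with no factors 1.63, 1.32 and 0.89, the last with an adjusted p of 0.0603. PolE1, the catalytic subunit of DNA polymerase epsilon, had the largest change at 8 h, from 5.47 to 7.0 cpm at D5 to 9.95 to 12.5 cpm, a log2 rise of 1.08 (SE 0.24, adjusted p = 0.0136), or 0.80 with no factors (adjusted p = 0.0169). Parp1, which senses strand breaks, fell by 0.66 on the log2 scale after 8 h (SE 0.17, adjusted p = 0.0272), though its cpm overlapped, at 162 to 189 at D5 and 146 to 166 after 8 h, and with no factors the log2 fold change was -0.19 (adjusted p = 0.513). Cul4, the cullin of the DDB1 ubiquitin ligase, was the gene called at D30, where it fell by 0.49 on the log2 scale (SE 0.13, adjusted p = 0.0183), from 38.7 to 43.5 cpm at D5 to 25.4 to 31.5 cpm. With no factors this change was -0.52 (adjusted p = 0.0790). The median log2 fold change of the 20 was 0.22 after 8 h and 0.15 at D30, each below that of the 9 members, and this difference was not tested.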

How the data were processed

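Nuclear RNA of 18 samples was sequenced as paired reads after depletion of ribosomal RNA. The authors trimmed reads with Trimmomatic, aligned them with HISAT2 to BDGP6.28 and deposited raw read counts per gene from HTSeq (version 0.11.1 in the submitters' processing notes); the strand setting is not given in the sources used here. The study stated a filter of cpm above 10, which most members would not pass; here a feature was tested where its count was over 10 in all samples (9427 of 17811, 52.9%). Lines that name no gene (reads in no feature, ambiguous or multiply aligned) held 55.1 to 75.5% of the records and were left out. Counts were normalized by TMM, and 2 factors were estimated by RUVs, rewritten in R 4.3.3 because the package was not installed. Conditions were compared with the quasi-likelihood test of edgeR 4.0.16 in 1 model over all samples, with Benjamini-Hochberg adjustment over all features tested and a threshold of 0.05. The script was tested on simulated data. SE is the log2 fold change over the square root of F. Cpm are TMM-normalized; RPKM divides cpm by BDGP6.54 exon length.

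Samples were grouped by title. The lowest chi-square per degree of freedom between replicates was 16.4, so none was a duplicate. Replicates are biological according to the study. The members and lists were chosen with earlier results of these data known. All 10 members are named, with the 3 other repair genes of the largest called change at 8 h and at D30 (1 was called at D30), cry, and the 3 features most correlated with Xpac, mus201 and phr6-4. The gene mus210 was matched through its synonym Xpc. Alternatives were 0, 1 or 3 factors, upper-quartile scaling, DESeq2 size factors, the DESeq2 1.42.0 Wald test, no filter, a filter of cpm over 1 in at least 3 samples, a replicate block, each replicate left out and, chosen after seeing the data, the samples of 1 lane alone. Adjusted p given as NA by DESeq2 was kept as NA. This held for phr and phr6-4 in all comparisons except D15 and D30 against D5 and D30 against 8 h. Sequences are not shown.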

Additional observations from a re-analysis of the deposited data

Results flagged for a closer look

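The exposure groups differed for mus201 and mei-9, in that the test of 8 h against 3 h, both in 1 lane, passed the threshold. The difference between the log2 changes was 1.10 for mus201 and 1.29 for mei-9 in edgeR. Without factors the mei-9 difference was 1.27 and the mus201 difference -0.03.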

How the results depend on the processing

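The rise of mus201 after 5 h was called in all 27 alternatives, and every other call ended in at least 1. The members called in 3 h against D5 went from 0 to 1 with the DESeq2 Wald test, by a fall of mus201. In 5 h against D5 they went from 1 to 2 with no factors, with 3 factors and with the DESeq2 Wald test. In 8 h against D5 they went from 2 to 6 with 1 factor, 5 with the cpm filter and 0 with the replicate block. With 1 factor Xpac and Rrp1 lost their calls, and the 6 were mus210, Xpd, mus201, mei-9, phr and phr6-4. The count stayed at 2 with no filter, where mus201 and mei-9 replaced Xpac and Rrp1, and with no factors, where Xpd and mei-9 did. Without 3 h replicate 1 neither Xpac nor Rrp1 was called. In D15 against D5 the members called went from 0 to 1 in 1 lane with no factors. In D30 against D5 they went from 2 to 0 with no factors, no filter or the cpm filter, and to 1 with DESeq2 size factors or the DESeq2 Wald test. In 8 h against 3 h they went from 2 to 1 with the replicate block and 4 with the DESeq2 Wald test, and in D30 against 8 h from 0 to 2 with no factors or 1 factor and 1 with no filter. With no factors the count in 8 h against 3 h stayed at 2, but Xpd was called in place of mus201. With 1 replicate left out the counts were 1 to 2 in 5 h against D5, 2 to 6 in 8 h against D5 (5 without 3 h replicate 1, 4 without D5 replicate 1 or D30 replicate 1, 6 without D30 replicate 3), 0 to 5 in D30 against D5 (5 without 3 h replicate 1, 4 without D30 replicate 3), 2 to 3 in 8 h against 3 h and 0 to 2 in D30 against 8 h. Whether replicate numbers pair the samples was not settled. In no comparison did every same-numbered pair of deviations correlate above 0.1, but some did. With the factors removed, the mean r ran from -0.17 in D30 against D15 to 0.26 in 5 h against D5, where the r were 0.56, 0.33 and -0.11. Before their removal, the r in 8 h against 3 h were 0.26, 0.16 and 0.08. The replicate block took D30 against D5 from 2 to 3 called members, with Rrp1 added. Upper-quartile scaling moved the median of all features at D15 from -0.01 to 0.11, and the share of calls that rose from 39.8 to 68.6% at D15, 50.7 to 65.7% at 8 h, 41.3 to 54.5% in 8 h against 3 h and 85.7 to 73.9% in D30 against D15. Precision was limited by counts of 15 to 56 for the photolyases and 7 to 30 for Ercc1.

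Signs of the single-gene values were compared after rounding to 2 decimals, so a value that rounds to 0 was not counted as turned. For mus201 in D30 against 8 h it was -0.003 with 2 factors, 0.14 with no factors and -0.088 to 0.21 with 1 replicate left out. Of the single-gene values, 58 turned direction under another setting and 62 with a replicate left out. None of them was called there, and the cause was not tested. With no factors they were 0.50 for mus210, 0.42 for hay, 0.48 for mus201 and -0.088 for Rrp1 in 3 h against D5, with 0.25 for mei-9 in 5 h against D5, with 0.042 for hay in D15 against D5, with -0.14 for mus210, -0.19 for hay and -0.026 for mus201 in 8 h against 3 h, with -0.024 for mus210, 0.44 for Xpac and -0.050 for mei-9 in D30 against D15, with -0.14 for mus210, 0.42 for Xpac, 0.018 for hay, 0.27 for Rrp1 and 0.27 for phr6-4 in D30 against 8 h. With no filter they were 0.041 for mus210 in 3 h against D5, with 0.20 for mei-9 in 5 h against D5, with -0.011 for hay, -0.16 for Xpd and -0.051 for mei-9 in D30 against D5, with -0.040 for mus210, 0.17 for Xpac, -0.093 for Xpd, -0.031 for mus201 and -0.16 for mei-9 in D30 against D15, with -0.28 for mus210 in D30 against 8 h. With 1 factor they were 0.11 for mei-9 in 5 h against D5, with 0.45 for Xpac and -0.030 for mei-9 in D30 against D15, with -0.20 for mus210, 0.42 for Xpac, 0.29 for Rrp1 and 0.23 for phr6-4 in D30 against 8 h. With 3 factors they were 0.009 for mei-9 in 5 h against D5, with 0.029 for hay in D15 against D5, with 0.097 for phr and 0.040 for phr6-4 in D30 against 8 h. With the cpm filter they were 0.19 for mei-9 in 5 h against D5, with 0.050 for Xpd in D15 against D5, with -0.092 for Xpd in D30 against D5, with -0.055 for mus210, 0.018 for Xpac, -0.14 for Xpd, -0.083 for mus201 and -0.20 for mei-9 in D30 against D15, with -0.26 for mus210 in D30 against 8 h. With upper-quartile scaling they were 0.055 for hay and 0.082 for Xpd in D15 against D5, with -0.053 for Rrp1 in D30 against D15. With 1 lane and no factors they were 0.012 for hay in D15 against D5, with -0.12 for mus210, -0.18 for hay and -0.009 for mus201 in 8 h against 3 h. With 1 lane and 2 factors they were 0.088 for Xpd in D15 against D5. With the replicate block they were 0.18 for phr and 0.62 for phr6-4 in D30 against 8 h. With 1 replicate left out, in 3 h against D5 the ranges were -0.26 to 0.35 for mus210, -0.099 to 0.77 for Xpac, -0.35 to 0.45 for hay, -0.67 to 0.012 for mus201, -0.25 to 0.37 for Rrp1 and -0.15 to 1.45 for phr. In 5 h against D5 the ranges were -0.13 to 0.16 for mei-9 and -0.19 to 0.80 for phr. In D15 against D5 the ranges were -0.035 to 0.21 for mus210, -0.12 to 0.038 for hay, -0.19 to 0.16 for Xpd and -0.032 to 0.26 for mei-9. In D30 against D5 the ranges were -0.18 to 0.17 for Xpd. In 8 h against 3 h the ranges were -0.26 to 0.48 for mus210, -0.26 to 0.65 for hay and -0.53 to 1.21 for phr. In D30 against D15 the ranges were -0.12 to 0.26 for mus210, -0.23 to 0.47 for Xpac, -0.15 to 0.20 for Xpd, -0.064 to 0.26 for mei-9, -0.058 to 0.51 for Rrp1 and -0.10 to 0.97 for phr. In D30 against 8 h the ranges were -0.36 to 0.23 for mus210, -0.76 to 0.49 for Xpac, -0.19 to 0.082 for hay, -0.67 to 0.31 for Rrp1, -0.79 to 0.37 for phr and -0.27 to 0.42 for phr6-4.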
